A study of Mus musculus with 12 samples.

Results

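The endoplasmic reticulum (ER) genes described here are 37 listed genes for ER protein folding, the unfolded protein response, ER-associated degradation and protein translocation. They were taken by name from the normalised count tables. Of the 37 genes, 36 were found in both tables, against 10080 genes that both tables hold. Derl3, the remaining gene, is in the mRNA table only and had 8, 2 and 0 mRNA reads in R98S clones 11, 13 and 35 and 0, 1 and 1 in WT clones 28, 29 and 36. The members fall into 7 roles. There are 9 genes of the ER Hsp70 and Hsp40 system, 4 protein disulphide isomerases, 2 lectin chaperones, 4 sensors and factors of the unfolded protein response, 9 genes of ER-associated degradation, 5 of the Sec61 translocon and 4 of the translocon-associated protein complex.

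The values come from Ba/F3, a mouse lymphoid cell line that grows on interleukin-3. All cells carried a retroviral human RPL10 cDNA and an shRNA against endogenous Rpl10, and the cDNA was either wild type (WT) or held the R98S mutation. Each of the 6 lines is 1 clone grown from a single-cell colony, with 3 clones per genotype, and every clone gave 1 ribosome footprinting library and 1 mRNA library, 12 in all. Cells of both genotypes received cycloheximide at 100 µg/ml for 5 min before lysis. Differences between the genotypes are therefore differences between 3 and 3 clones, and a difference that a clone carries besides its RPL10 allele cannot be told apart from one of genotype.

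Proteins bound for the secretory pathway enter the ER through the Sec61 channel, helped by the translocon-associated protein (TRAP) complex. Inside, the Hsp70 chaperone BiP (Hspa5), its Hsp40 partners, the disulphide isomerases and the lectin chaperones fold them, and proteins that fail are sent back to the cytosol for degradation. When unfolded proteins build up, the sensors Ern1 (IRE1), Atf6 and Eif2ak3 (PERK) start the unfolded protein response: IRE1 cuts Xbp1 mRNA so that it encodes an active transcription factor, Atf6 releases another, and PERK slows translation. Secretory cells such as plasma cells need large amounts of this machinery.

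The mRNA libraries held 6617457 to 23136595 reads and the footprinting libraries 3477723 to 10883086. WT clone 28 had the shallowest mRNA library and R98S clone 35 the shallowest footprinting library. The members took 0.691 to 0.909% of the counted mRNA reads and 1.37 to 1.65% of the counted footprint reads of a library. These 2 shares are not comparable: mRNA was counted over the exons of 41255 listed genes. Footprints were counted over coding sequence, and 10080 genes are listed. The lowest read count of an expressed member was 171 for mRNA (Edem3, WT clone 28) and 67 for footprints (Dnajb9, WT clone 36). Mouse Rpl10, the targeted gene, had 1449 to 2905 normalised mRNA counts in the R98S clones and 2230.2 to 4501 in the WT clones, a log2 fold change of -0.42 (SE 0.32, adjusted p = 0.551, limma). The paper selected its cultures by qPCR for knockdown of endogenous Rpl10. How far reads of the human RPL10 cDNA entered these counts was not tested. Marker lists differed between the genotypes. The 3 interleukin-3 receptor genes summed to 95081 to 117075 normalised mRNA counts in the R98S clones and 42064 to 80899 in the WT clones, and by limma Csf2rb2 passed higher in both assays and Csf2rb in footprints. Of 6 mast cell and basophil genes, Kit was at 0 in each mRNA library, Cpa3 passed higher in mRNA and footprints, and Gata2 passed lower in mRNA. This list summed to 12241 to 15826 mRNA counts in the R98S clones and 20397 to 26588 in the WT clones, nearly all of it Gata2. Ms4a2, of the same list, was at 168.5 in R98S clone 35 and at 18.0 to 56.4 in the other clones. The macrophage gene Cd14 was at 429.7 mRNA counts in WT clone 28 and at 0 to 4.91 in the other clones. The T-lineage gene Cd3d passed higher in footprints only, at 30.2 to 80.3 against 8.33 to 10.5 counts. The 8 B-lineage genes summed to 1350 to 1671 mRNA counts in the R98S clones and 893 to 1155 in the WT clones. Nearly all of it was Cd79a and Cd79b, and 0 passed in mRNA or footprints. What part these differences have in the values of the ER genes was not tested. The B-lineage receptor gene Cd79a was at 730.4 to 1357 normalised mRNA counts while Pax5, which defines committed B cells, and the recombinase gene Rag1 were at 0 in each library, as was the plasma cell regulator Prdm1. The 6 plasma cell genes summed to 9.8 to 19.1 counts in R98S and 11.8 to 24.2 in WT.

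Short sequences of 2 kinds mark how these genes are regulated, and both are shown because the text returns to them. The first is the stretch of Xbp1 mRNA that activated IRE1 cuts. It lies in exon 4 of 5 of the principal transcript, in the coding sequence, and the capitals mark the 26 bases that are excised (build GRCm38, GENCODE M21 transcript).
Xbp1, chr11:5524252-5524337, plus strand: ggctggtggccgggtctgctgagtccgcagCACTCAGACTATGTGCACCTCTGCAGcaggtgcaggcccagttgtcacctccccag
The excised piece starts in codon 161. Footprints and mRNA were counted per gene, so the cut and the uncut form of Xbp1 cannot be told apart in these values.

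The second is the ER stress response element (ERSE), a promoter element bound by Atf6 and Xbp1 together with NF-Y, written as CCAAT and CCACG separated by 9 bases. RefSeq promoters, from 250 bases before to 50 after the start (build GRCm38.p6), matched 31 of the 37 members. An exact ERSE on either strand was present in 9 of these 31 members, against 0.119% of all 32851 promoters. The shorter ERSE-II, ATTGG and CCACG separated by 1 base, was present in 2 of the 31, against 0.0365% of promoters. The sites are written below with CCAAT or ATTGG first, the capitals mark the element, and 6 bases stand on either side.
Hspa5 ERSE, chr2:34772019-34772049, plus strand: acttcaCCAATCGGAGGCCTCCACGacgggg
Hsp90b1 ERSE, chr10:86705632-86705662, minus strand: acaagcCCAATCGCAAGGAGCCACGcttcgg
Hsp90b1 ERSE, chr10:86705527-86705557, plus strand: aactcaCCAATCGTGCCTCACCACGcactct
Dnajc3 ERSE, chr14:118937821-118937851, plus strand: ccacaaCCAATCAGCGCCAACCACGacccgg
Creld2 ERSE, chr15:88819514-88819544, minus strand: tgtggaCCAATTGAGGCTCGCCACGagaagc
Pdia6 ERSE, chr12:17266485-17266515, plus strand: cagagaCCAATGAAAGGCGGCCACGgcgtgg
Calr ERSE, chr8:84847069-84847099, plus strand: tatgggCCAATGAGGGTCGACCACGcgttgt
Canx ERSE, chr11:50325794-50325824, minus strand: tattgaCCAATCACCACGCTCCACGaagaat
Syvn1 ERSE, chr19:6046526-6046556, plus strand: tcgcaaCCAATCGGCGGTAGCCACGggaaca
Derl3 ERSE, chr10:75893236-75893266, minus strand: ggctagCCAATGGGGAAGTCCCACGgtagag
Dnajb11 ERSE-II, chr16:22857846-22857868, plus strand: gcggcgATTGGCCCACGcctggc
Herpud1 ERSE-II, chr8:94386371-94386393, plus strand: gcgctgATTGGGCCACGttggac
The 10 ERSE sites ended 25 to 193 bases before the start, and 6 of them lay on the strand of the gene. Hsp90b1 was the member with a pair of them. The sites fell in promoters of chaperones (Hspa5, Hsp90b1, Dnajc3, Creld2, Dnajb11), of a disulphide isomerase (Pdia6), of both lectin chaperones (Calr, Canx) and of degradation genes (Syvn1, Herpud1, Derl3), while the 4 searched promoters of the Sec61 translocon and the 3 of the TRAP complex held neither element. The core CCACG alone, which is part of both elements, was present in 24 of the 31 members against 32.8% of promoters. The XBP1-bound element UPRE was searched only as TGACG directly followed by TGG. This form was present in 0 of 31 against 0.676%, and variants of it were not searched. The promoters of Xbp1 and Sec61b held none of these 4 motifs, and that of Ssr3 held the core CCACG only. A match describes letters in these windows and is not evidence of binding in Ba/F3.

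Levels of different genes were compared per length, as normalised footprint counts per kb of counted coding sequence in the WT clones. On this scale 31 of the 36 members lay above the median of all genes, which was 194 over 8788 genes. The Ca2+-binding chaperone Calr, at 15501 ± 3300.1 (SD, n = 3), and the disulphide isomerase P4hb, at 13624 ± 1597, were the highest and differed by less than their spread. BiP (Hspa5) followed at 5550.5 ± 1259 and its ER Hsp90 partner Hsp90b1 at 4480.1 ± 500.3, again within their spread of each other.

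The TRAP subunit Ssr3 was at 3818 ± 646 footprint counts per kb and the channel subunit Sec61a1 at 2024 ± 406. Xbp1 was at 1163 ± 149.6. The IRE1 gene Ern1, at 55.5 ± 20.1, and the mannosidase-like degradation factor Edem3, at 50.5 ± 5.13, were lowest. The median of the 9 Hsp70 and Hsp40 genes was 1026, that of the 5 Sec61 genes 1677 and that of the 4 unfolded protein response genes, Xbp1 included, 362. These roles overlapped: Dnajb9, at 145 ± 29.2, lay below Atf6, at 254 ± 83.4, and Sec63 was level with Atf6, at 262 ± 27.8.

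The ratio of footprints per kb to mRNA per kb, which has no absolute scale because the tables were normalised separately, had a median of 1.17 over the members and of 0.709 over the 8788 genes. It was 3.87 ± 0.435 (SD, n = 3) for the TRAP subunit Ssr1, the highest of the members, and 2.52 ± 1.3 for Calr, where the WT clones spread widely. For Ern1 it was 0.463 ± 0.224. Lengths are those of the principal transcript of each gene. The Ssr1 ratio rests on such a transcript of 9333 bases for 286 codons, and other transcript lengths were not tried.

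**Figure D1:**
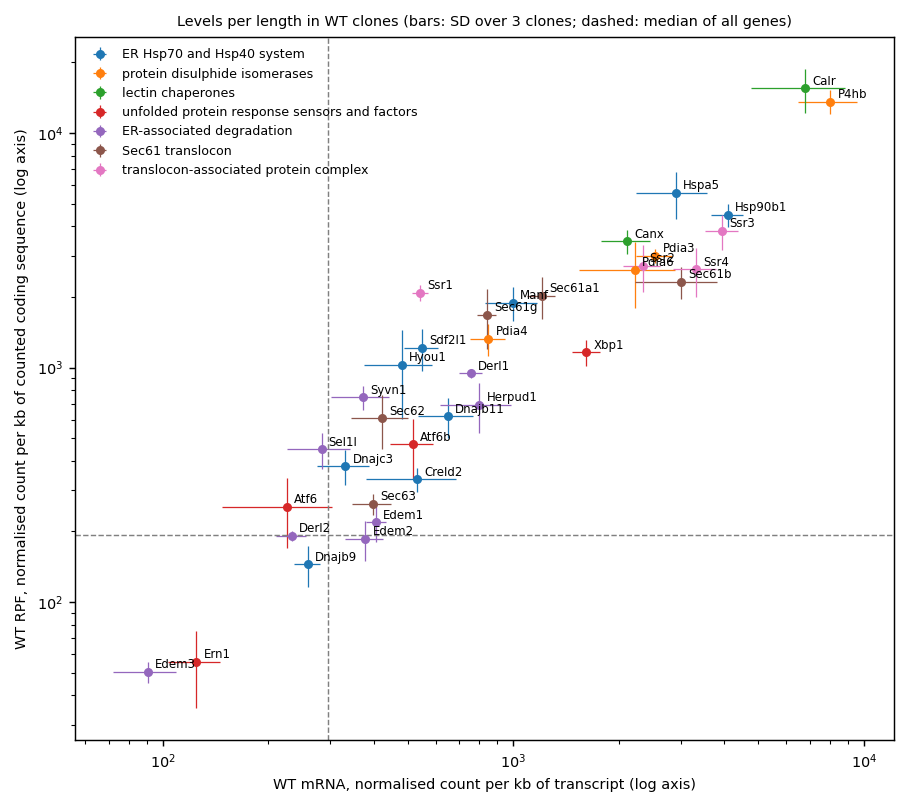
Normalised mRNA counts per kb of transcript (x, log axis) and normalised footprint counts per kb of counted coding sequence (y, log axis) of 36 ER genes, mean of 3 WT clones with SD bars, coloured by role; dashed lines are the medians of 8788 genes. Calr and P4hb stand at the top right, at 15501 and 13624 footprint counts per kb, and Ern1 and Edem3 at the bottom left.

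The comparison of R98S with WT asks which transcripts, footprints and translation efficiencies differ when the mutant RPL10 replaces the wild type. Of the 36 expressed ER genes, 2 passed the threshold given below in mRNA and 3 in footprints. Over all genes 787 of 11344 passed in mRNA and 743 of 9580 in footprints. The Xbp1 transcript fell to about 0.549 of its WT level in mRNA and 0.634 in footprints. The TRAP subunit Ssr3 fell in both, and footprints on the channel subunit Sec61b rose 1.53-fold. Without R98S clone 11 or 13, 0 members passed in either assay. The main chaperones were on both sides of 0 and none of them passed the threshold.

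All 36 expressed members were tested, with limma on log2(normalised count + 1) over all genes and an adjusted p under 0.1 as the threshold. For mRNA 0 members passed higher in R98S, against 3.03% of the 11344 genes tested, and 2 passed lower, against 3.91%. At an unadjusted p under 0.05 there were 5, beside 2036 of the 11344 genes. By edgeR and DESeq2 on whole reads, 0 members also passed higher and 2 lower. For footprints 1 member passed higher, against 3.13% of 9580 genes, and 2 lower, against 4.62%. These are counts of 1 or 2 of 36, and no reading about the group as a whole is drawn from them. In bulk samples fewer cells that make a transcript and less of it per cell cannot be told apart.

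The R98S and WT clones did not overlap for 3 members with R98S higher in mRNA (11.9% of all genes did the same) and 2 with R98S lower (11.6%). In footprints the numbers were 4 higher (12.5%) and 3 lower (12.8%). The median log2 fold change of the 36 members was -0.02 in mRNA, with 18 members on either side of 0, and 0.09 in footprints, with 22 above and 14 below, beside 0.01 over all genes in both assays. Since 1 was added to each value, the change of a gene with few counts is understated.

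**Figure D2:**
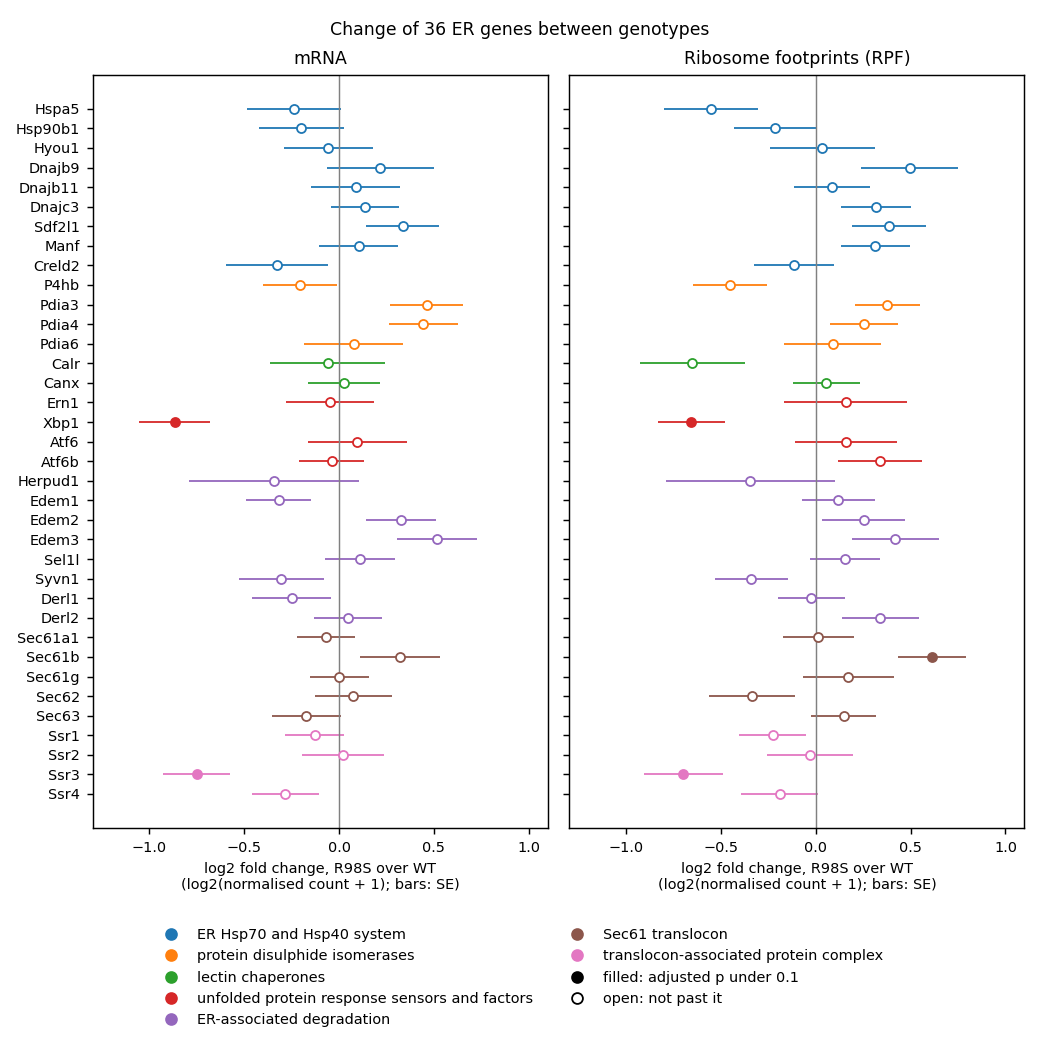
Log2 fold change of R98S over WT on the log2(normalised count + 1) scale (x, bars are SE from limma, 3 against 3 clones) for 36 ER genes ordered by role (y), in mRNA and in footprints; filled points passed an adjusted p of 0.1. Xbp1 and Ssr3 stand below 0 in both panels, and Sec61b is the filled point above 0 in footprints.

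Xbp1, the transcription factor of the IRE1 branch, lies on chr11:5520659-5525893 (GRCm38, plus strand) and overlaps no other annotated gene. Its normalised mRNA counts were 1599.6, 1773 and 2345 in R98S clones 11, 13 and 35 and 3298, 3796 and 3219 in WT clones 28, 29 and 36. Its footprint counts were 496, 582 and 554 in the R98S clones and 752, 973 and 860.5 in the WT clones, in the same clone order. All R98S values lay below all WT values in both assays.

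The means for Xbp1 mRNA were 1906 ± 390.2 against 3438 ± 313 (SD, n = 3 and 3), a log2 fold change of -0.87 (SE 0.19, adjusted p = 0.0349) by limma. For footprints they were 544 ± 44.3 against 862 ± 111 (SD, n = 3 and 3), with a log2 fold change of -0.66 (SE 0.18, adjusted p = 0.0663), also by limma. Without R98S clone 11 or 13 the mRNA change was -0.75 or -0.82 and no longer passed (adjusted p = 0.17 and 0.145, limma), and the footprint call was also lost without either of these clones or WT clone 29 or 36. With 3 against 3 clones an exact two-sided permutation test cannot give less than p = 0.1, which is the value for both assays.

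The sensors upstream of Xbp1 did not pass the threshold. Ern1, which cuts Xbp1 mRNA, had mRNA counts of 849, 1064 and 634 in the R98S clones and 709, 891 and 999 in the WT clones and footprint counts of 185, 221 and 118 in the R98S clones and 205, 94.7 and 178 in the WT clones. The groups overlapped in both assays, and the log2 fold changes were -0.05 (SE 0.23, adjusted p = 0.945) and 0.16 (SE 0.33, adjusted p = 0.822) by limma.

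Atf6, the sensor that becomes a transcription factor after cleavage in the Golgi, had mRNA counts of 1722, 2059 and 1342 in the R98S clones and 1163, 1478 and 2265 in the WT clones and footprint counts of 561, 603 and 409.7 in the R98S clones and 599.9, 303 and 551 in the WT clones. WT clone 36 was highest in mRNA and WT clone 29 lowest in footprints, and the genotypes overlapped in both assays. The log2 fold changes were 0.10 (SE 0.26, adjusted p = 0.893) in mRNA and 0.16 (SE 0.27, adjusted p = 0.781) in footprints by limma. Its relative Atf6b had -0.04 (SE 0.17) in mRNA and 0.34 (SE 0.22) in footprints.

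**Figure D3:**
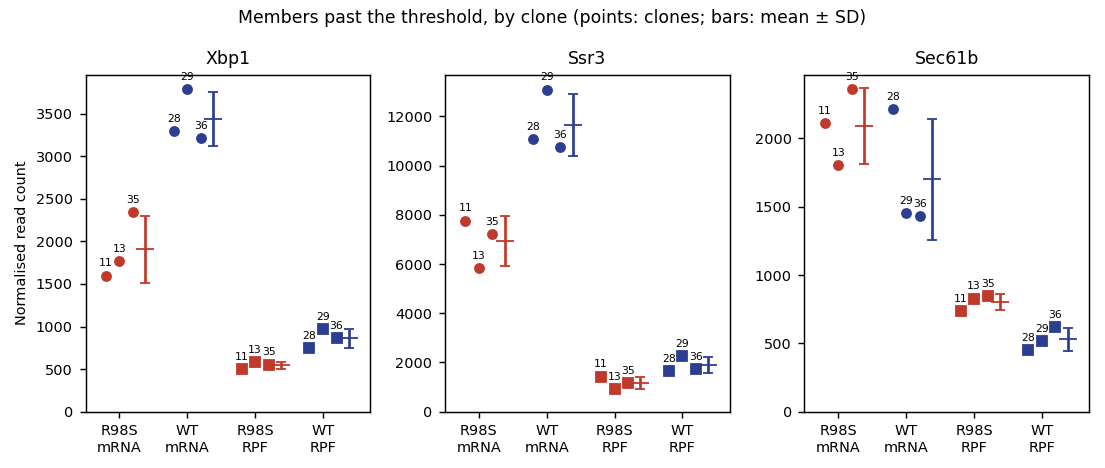
Normalised read counts (y, linear axis from 0) of Xbp1, Ssr3 and Sec61b in each clone, mRNA as circles and footprints as squares, with clone numbers above the points and mean ± SD beside them. The R98S clones lie below the WT clones for Xbp1 and Ssr3 in both assays, and above them for Sec61b in footprints, where mRNA overlaps.

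Ssr3, the gamma subunit of the TRAP complex that sits beside the Sec61 channel, lies on chr3:65379655-65392623 (GRCm38, minus strand). Its mRNA counts were 7772, 5823 and 7240.3 in the R98S clones and 11101, 13097 and 10762 in the WT clones, in the clone order 11, 13, 35 and 28, 29, 36. Its footprint counts were 1429.5, 914 and 1172 in the R98S clones and 1671, 2257 and 1742 in the WT clones. The lowest WT clone stood above the highest R98S clone in both assays, by a wide margin in mRNA.

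The mRNA means of Ssr3 were 6945 ± 1008 against 11654 ± 1261 (SD, n = 3 and 3), a log2 fold change of -0.75 (SE 0.18, adjusted p = 0.05) by limma, and the footprint change was -0.70 (SE 0.21, adjusted p = 0.0915). The median of the 490 genes of chromosome 3 in mRNA, relative to the 6-clone mean on the log2 scale, stood at 0.09 in R98S clone 11, -0.30 in R98S clone 13 and -0.19 in R98S clone 35, and at 0.09, 0.16 and 0.15 in the WT clones. R98S clones 13 and 35 were thus lower across this chromosome while R98S clone 11 was level with WT clone 28. After subtraction of chromosome medians the Ssr3 change was -0.49 in mRNA (adjusted p = 0.128, limma) and -0.41 in footprints (adjusted p = 0.213), past the threshold in neither. The mRNA call was also lost without R98S clone 11 or 13 or WT clone 29 or 36 (lowest adjusted p = 0.109, limma), and the footprint call without any 1 of the 6 clones.

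The other TRAP subunits had smaller differences. Ssr1 was at -0.13 in mRNA and -0.23 in footprints (log2 fold changes), Ssr4 at -0.28 and -0.19, and Ssr2 at 0.02 and -0.03. None of these 3 passed the threshold. All 4 subunits had a footprint change below 0, with a median of -0.21, beside 4673 of 9580 genes below 0. That of Ssr2 was within 1 SE (0.23) of 0, and Ssr2 lies on chromosome 3 like Ssr3.

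Sec61b, the small beta subunit of the translocation channel, lies on chr4:47474658-47483242 (GRCm38, plus strand). Its footprint counts were 739, 828 and 845 in R98S clones 11, 13 and 35 and 454, 515 and 618 in WT clones 28, 29 and 36. Its mRNA counts were 2114, 1802 and 2359 in the R98S clones and 2213, 1455 and 1429 in the WT clones. In footprints all R98S clones were above all WT clones, while in mRNA WT clone 28 was higher than R98S clones 11 and 13.

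The footprint means of Sec61b were 804 ± 56.7 against 529 ± 83 (SD, n = 3 and 3), a log2 fold change of 0.61 (SE 0.18, adjusted p = 0.0894) by limma, and the mRNA change was 0.32 (SE 0.21, adjusted p = 0.476). The coding sequence has 96 codons, of which 76 were counted. The median of the 592 genes of chromosome 4 in footprints was 0.11, 0.05 and 0.15 in the R98S clones and -0.10, -0.09 and -0.06 in the WT clones, and with chromosome medians removed the Sec61b change was 0.42 (adjusted p = 0.199, limma). The call was lost without any 1 of the 6 clones, at changes from 0.51 to 0.73.

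Sec61a1, the pore-forming subunit, had mRNA counts of 3639, 3509 and 3771 in the R98S clones and 4058, 3420.4 and 3999 in the WT clones and footprint counts of 2699, 2845 and 2729 in the R98S clones and 3366, 2268 and 2674 in the WT clones. The R98S clones lay inside the range of the WT clones in footprints, at a log2 fold change of 0.01 (SE 0.19, adjusted p = 0.976) by limma, and it was -0.07 (SE 0.15) in mRNA. The third channel subunit, Sec61g, was at 0.001 in mRNA and 0.17 in footprints. Sec62 and Sec63, which serve post-translational import and BiP recruitment, were at -0.34 and 0.15 in footprints. Of the 5 Sec61 translocon genes, 1 passed higher and 0 lower in footprints, against 3.13% and 4.62% of all genes. In mRNA 0 passed, against 3.03% higher and 3.91% lower. Nothing about the role is read from counts this small.

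Among the ER Hsp70 and Hsp40 genes, 0 of 9 passed the threshold in either assay, beside 787 of 11344 genes in mRNA and 743 of 9580 in footprints. BiP (Hspa5), the ER Hsp70 and the usual readout of ER stress, had mRNA counts of 6573, 8876 and 12024 in R98S clones 11, 13 and 35 and 9353, 9168 and 13434 in WT clones 28, 29 and 36. Its footprint counts were 5341, 7398 and 8982 in the R98S clones and 12832, 8055 and 10834 in the WT clones. R98S clone 11 was lowest in both assays, and R98S clone 35 overlapped the WT clones in both.

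For Hspa5 the log2 fold change was -0.24 (SE 0.25, adjusted p = 0.672) in mRNA and -0.55 (SE 0.25, adjusted p = 0.24) in footprints by limma, and only the fit with library weights took it past the threshold, at -0.65 in mRNA (adjusted p = 0.0595) and -0.69 in footprints (adjusted p = 0.0569). The ER Hsp90, Hsp90b1, had mRNA counts of 8258, 8609 and 14108 in the R98S clones and 10610.0, 11078 and 12897 in the WT clones and footprint counts of 8693, 7360.3 and 11446 in the R98S clones and 11767, 9443 and 10321 in the WT clones. The 2 genotypes overlapped, with R98S clone 35 above each WT clone in mRNA, and the log2 fold changes were -0.20 (SE 0.23) and -0.22 (SE 0.21).

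Dnajb9, an Hsp40 that represses IRE1, had footprint counts of 135, 97.2 and 139 in the R98S clones and 69.7, 105 and 88.3 in the WT clones and a log2 fold change of 0.49 (SE 0.26, adjusted p = 0.309) by limma. R98S clone 13 lay below WT clone 29, so the groups overlapped. Sdf2l1, a co-chaperone that binds Dnajb9 and Dnajb11, was the member of this role whose genotypes did not overlap: 745, 677 and 882 in the R98S clones and 623, 533 and 667 in the WT clones in mRNA and 873, 977 and 986 in the R98S clones and 811, 560.1 and 828 in the WT clones in footprints, at log2 fold changes of 0.34 and 0.39 that did not pass. The remaining members of the role, the nucleotide exchange factor Hyou1, the Hsp40s Dnajb11 and Dnajc3, and the stress-induced Manf and Creld2, lay between -0.33 and 0.13 in mRNA and between -0.12 and 0.32 in footprints.

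Of the 4 protein disulphide isomerases, which form and rearrange disulphide bonds, 0 passed, beside 787 of 11344 genes in mRNA and 743 of 9580 in footprints. Pdia3, the partner of the lectin chaperones, had mRNA counts of 7805, 9899.7 and 11666 in the R98S clones and 6802, 6352 and 7961 in the WT clones and a log2 fold change of 0.46 (SE 0.19, adjusted p = 0.244) by limma. Its R98S clone 11 fell below WT clone 36, whereas its footprints, at 5174, 6192 and 5600.3 in the R98S clones and 4678, 4087 and 4277 in the WT clones, did not overlap between genotypes.

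Pdia4 had mRNA counts of 2543, 2471 and 3341 in the R98S clones and 1942, 1871 and 2295 in the WT clones, with each R98S clone above each WT clone and a log2 fold change of 0.44 (SE 0.18, adjusted p = 0.233) by limma. P4hb pointed the other way in footprints, at 14689, 14539 and 14297 in the R98S clones and 20765, 21842 and 17354 in the WT clones, with each R98S clone below each WT clone and a log2 fold change of -0.46 (SE 0.20, adjusted p = 0.221) by limma. Pdia6 was at 0.08 in mRNA and 0.09 in footprints.

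Calr, the soluble lectin chaperone, had footprint counts of 9804, 9027 and 17372 in R98S clones 11, 13 and 35 and 22118, 18818 and 14308 in WT clones 28, 29 and 36. Its mRNA counts were 11862, 10452 and 20961 in the R98S clones and 10127, 18929 and 15379 in the WT clones. R98S clones 11 and 13 were the 2 lowest in footprints, and R98S clone 35 lay among the WT clones. The log2 fold change was -0.65 (SE 0.28, adjusted p = 0.221) in footprints and -0.06 (SE 0.30) in mRNA by limma, and without R98S clone 35 the footprint change was -0.95 (adjusted p = 0.0664). Reads of the annotated pseudogene Calr-ps could be shared with Calr. Its membrane-bound relative Canx was at 0.03 and 0.06.

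Of the 8 expressed genes of ER-associated degradation, 0 passed in either assay, beside 787 of 11344 genes in mRNA and 743 of 9580 in footprints. Herpud1, a stress-induced scaffold of the degradation complex, had mRNA counts of 810.5, 760 and 2875 in R98S clones 11, 13 and 35 and 1362, 1970.4 and 1349 in WT clones 28, 29 and 36 and footprint counts of 411, 347 and 1473 in the R98S clones and 753, 965 and 593 in the WT clones. R98S clones 11 and 13 were below all WT clones and R98S clone 35 was above all of them, in both assays. The log2 fold changes were -0.34 (SE 0.45, adjusted p = 0.746) and -0.35 (SE 0.45, adjusted p = 0.71) by limma, and without R98S clone 35 they were -0.97 (adjusted p = 0.0622) and -0.999 (adjusted p = 0.0407). Herpud1 overlaps Gm15890 on the opposite strand, and whether the counting separated strands is not stated, as also for Hsp90b1, Dnajb9, Dnajb11, Manf, Pdia3, Pdia6, Syvn1, Derl2, Sec61a1, Sec62, Sec63 and Ssr2, which each overlap an opposite-strand gene.

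Edem3, which trims mannose from misfolded glycoproteins, had mRNA counts of 791, 925 and 721 in the R98S clones and 459, 565 and 694 in the WT clones and footprint counts of 222, 197 and 143 in the R98S clones and 147, 122 and 145 in the WT clones. Its R98S clones stood above its WT clones in mRNA but not in footprints, at log2 fold changes of 0.52 (SE 0.21, adjusted p = 0.233) and 0.42 (SE 0.23, adjusted p = 0.338) by limma. The mRNA median of the 596 genes of chromosome 1, which carries Edem3, was 0.199, 0.195 and -0.079 in the R98S clones. In the WT clones it was -0.179, -0.079 and -0.037. With chromosome medians removed the Edem3 mRNA change was 0.31 (adjusted p = 0.419, limma). Edem2 was at 0.33 and 0.25, and Edem1 at -0.32 and 0.12. The ubiquitin ligase Syvn1 was at -0.30 and -0.34 and its partner Sel1l at 0.11 and 0.15. The derlins Derl1 and Derl2, which form the exit channel, were at -0.25 and 0.05 in mRNA and at -0.02 and 0.34 in footprints.

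Translation efficiency (TE), which is footprints over mRNA of the same clone on the log2 scale, asks whether ribosome load moved apart from transcript level. By limma 0 of the 36 members passed the threshold in either direction, against 0% of 9043 genes higher and 0.0221% lower. At an unadjusted p under 0.05 there was 1 member (Edem1) and 710 of all genes, and edgeR and DESeq2 on whole reads also called 0 members. The median log2 change of the members was 0.05, beside -0.001 over all genes. The clones did not overlap for 3 members with R98S higher (7.45% of all genes) and 2 with R98S lower (7.36%).

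Edem1 had footprint to mRNA ratios of 0.241, 0.252 and 0.214 in R98S clones 11, 13 and 35 and 0.153, 0.191 and 0.18 in WT clones 28, 29 and 36. All R98S clones were above all WT clones, at a log2 change of 0.43 (SE 0.19, adjusted p = 0.629) by limma. Its mRNA counts were 1678, 1802 and 2233 in the R98S clones and 2224, 2525 and 2329 in the WT clones and its footprint counts 405, 453 and 479 in the R98S clones and 340.1, 483 and 419 in the WT clones; the genotypes overlapped in both. Atf6b, at ratios of 0.857, 1.01 and 0.913 in the R98S clones and 0.815, 0.592 and 0.747 in the WT clones and a log2 change of 0.38 (SE 0.20), and Derl2, at a log2 change of 0.29 (SE 0.19), also had R98S clones above WT clones.

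Sec63 ratios were 0.335, 0.319 and 0.262 in the R98S clones and 0.255, 0.272 and 0.208 in the WT clones, with an overlap between R98S clone 35 and WT clone 29 and a log2 change of 0.32 (SE 0.20). Sec62 pointed down, at ratios of 0.304, 0.285 and 0.33 in the R98S clones and 0.461, 0.433 and 0.337 in the WT clones and a log2 change of -0.41 (SE 0.19, adjusted p = 0.635) by limma, with no overlap. Calr had ratios of 0.827, 0.864 and 0.829 in the R98S clones and 2.18, 0.994 and 0.93 in the WT clones, with no overlap and a log2 change of -0.59 (SE 0.31, adjusted p = 0.649) by limma. The WT ratio of Calr rests on clone 28, the one with the shallowest mRNA library, and without that clone the change was -0.20.

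Hspa5 ratios were 0.812, 0.834 and 0.747 in the R98S clones and 1.37, 0.879 and 0.806 in the WT clones, at a log2 change of -0.31 (SE 0.23), and again WT clone 28 stood apart from the other WT clones. The 3 members past the threshold in mRNA or footprints had TE changes of 0.21 (SE 0.20) for Xbp1, 0.05 (SE 0.19) for Ssr3 and 0.29 (SE 0.28) for Sec61b. Hsp90b1 was at -0.02, Ern1 at 0.20, Atf6 at 0.06 and Sec61a1 at 0.08, each within 1 SE of 0.

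The clones of a genotype differed among themselves in these genes. Between R98S clones the median SD of the members on the log2 scale was 0.254 in mRNA and 0.201 in footprints. Over all genes it was 0.225 and 0.246. Between WT clones it was 0.221 and 0.261 for the members, and 0.293 and 0.271 over all genes. In mRNA R98S clone 35 stood apart from R98S clones 11 and 13. It was the highest of the 3 R98S clones for 24 of the 36 members in mRNA, against 37.5% of all genes. In footprints it was highest for 16, against 37.3%, while WT clone 28 was the highest WT clone for 19, against 35.3%. Of the 9 Hsp70 and Hsp40 genes, 8 were highest in R98S clone 35 in both assays, Dnajc3 being the exception, with a median of 0.64 above the mean of the other R98S clones on the log2 scale in mRNA and 0.35 in footprints. All 4 disulphide isomerases were highest in this clone in mRNA, with a median of 0.41, and 2 of 4 in footprints. So were 5 of 8 degradation genes and 4 of 5 Sec61 translocon genes in mRNA, and 4 and 1 in footprints. No test was made, because the clone was singled out after its values were seen.

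Herpud1 stood 1.87 above the mean of R98S clones 11 and 13 in mRNA and 1.96 in footprints, Dnajb9 1.03 and 0.28, and Calr 0.91 and 0.89. The sensors Ern1 and Atf6 went the other way in R98S clone 35, at -0.58 and -0.49 in mRNA and at -0.78 and -0.51 in footprints. The translocon and TRAP genes differed less, with medians of 0.09 and 0.10 in mRNA and -0.02 and -0.06 in footprints. The footprinting library of R98S clone 35 was the shallowest of the 6, at 3477723 reads, but its mRNA library, at 20576796 reads, was close in depth to those of R98S clones 11 and 13.

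**Figure D4:**
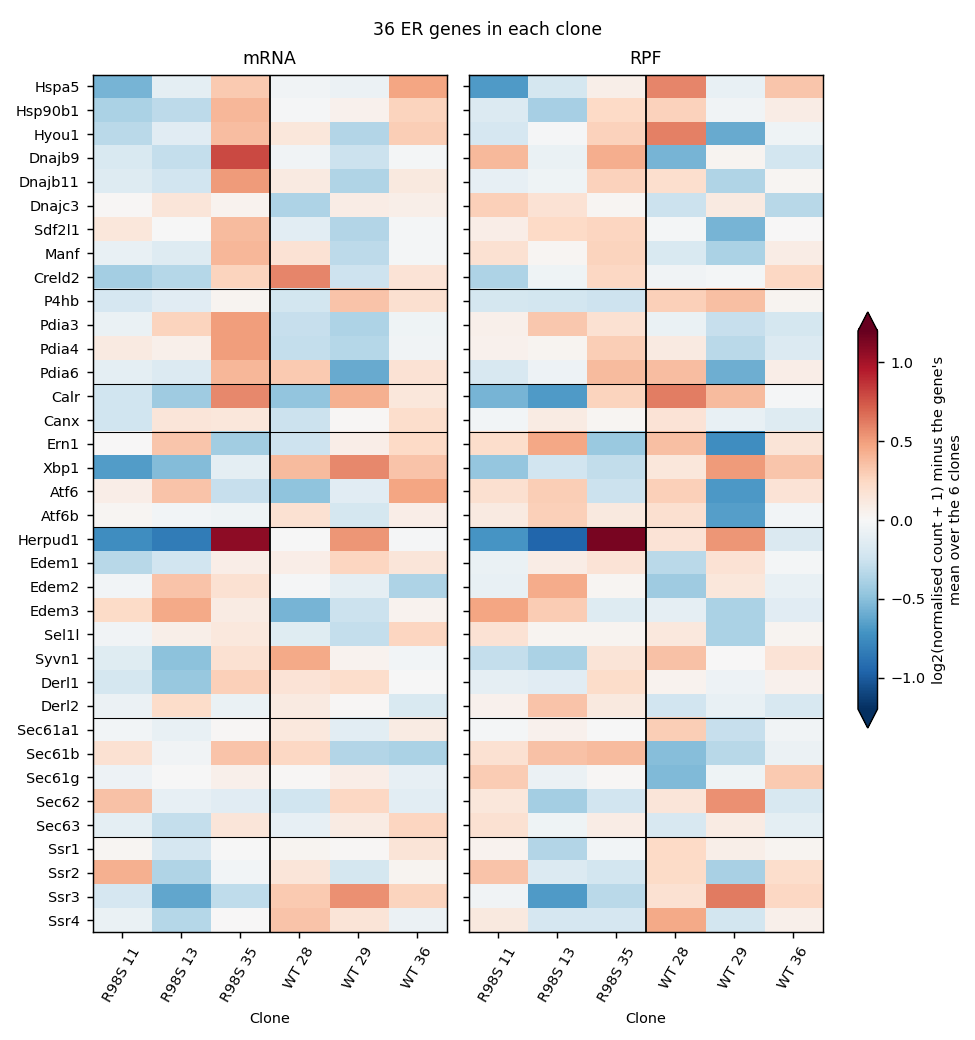
Each square is the log2(normalised count + 1) of 1 of 36 ER genes (y, ordered by role, lines between roles) in 1 clone (x), minus the mean of that gene over the 6 clones, for mRNA and footprints. Red runs through the chaperone rows of R98S clone 35 in mRNA, Herpud1 is the darkest row, and the Xbp1 and Ssr3 rows are blue in R98S and red in WT.

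The shift of R98S clone 35 was also described by promoter element, with no test. For the 10 expressed members with either element, the median shift of R98S clone 35 from the mean of the other R98S clones was 0.65 in mRNA and 0.49 in footprints, and 9 and 8 of the 10 were above 0, while Dnajc3 was at -0.04 and -0.21. For the 20 members with a searched promoter and neither element the medians were 0.16 and -0.02, with 15 and 9 of 20 above 0. Over all genes the medians were 0.01 and -0.001.

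The same shift of the other clones, each from the mean of the other clones of its genotype, had medians of -0.34 and -0.31 for the ERSE members in the mRNA of R98S clones 11 and 13 and of -0.21, -0.12 and 0.23 in WT clones 28, 29 and 36. In footprints these were -0.28 and -0.15, and 0.28, -0.17 and -0.02. Within a genotype the shifts of a gene cancel out by construction. The values of R98S clones 11 and 13 are therefore not independent of that of R98S clone 35. R98S clone 35 had the largest median shift of the 6 clones in both assays, and it was singled out after its values were seen. Between the genotypes, 0 of these 10 members passed the threshold in mRNA or footprints, with medians of -0.13 and -0.17. The members that did pass had neither element. Over all genes 787 of 11344 passed in mRNA and 743 of 9580 in footprints. At such shares 0 of 10 genes is too few to read, and nothing about the element is drawn from it. Genes outside the list with an ERSE or ERSE-II had a median shift in R98S clone 35 of 0.02 over 11 genes in mRNA, with 7 above 0. In footprints it was -0.12 over 10 genes, with 4 above 0. Most members with an element are chaperones or disulphide isomerases, so element and role cannot be told apart in these values. What part the element has in the shift was not tested.

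**Figure D5:**
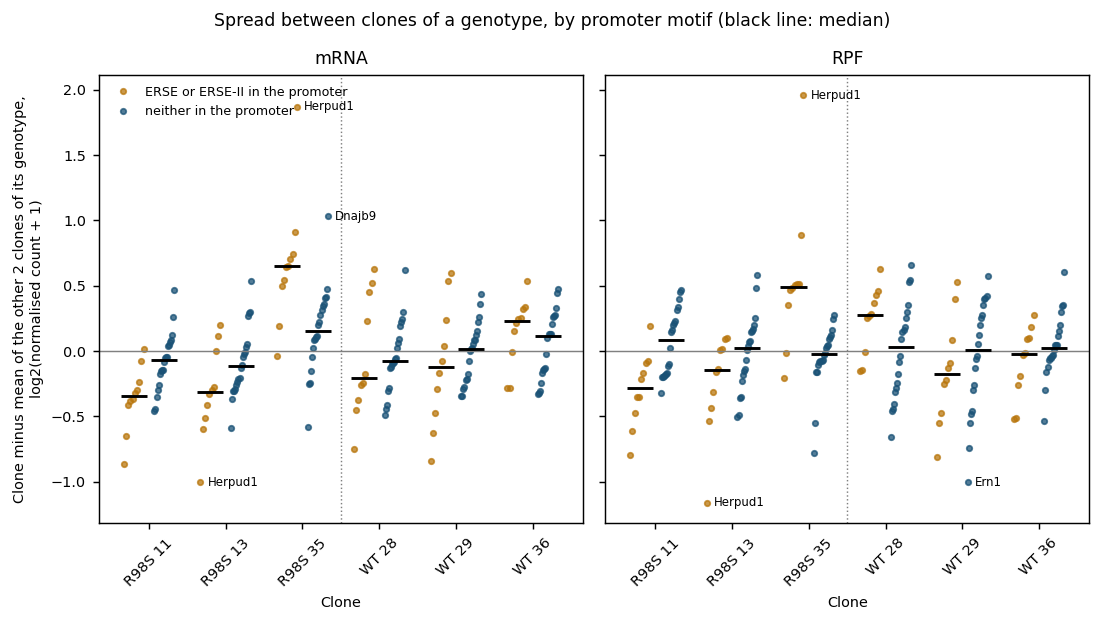
For each clone (x), the log2(normalised count + 1) of a member minus the mean of the other 2 clones of its genotype (y), for 10 members with an ERSE or ERSE-II in the promoter (orange) and 20 with neither (blue), in mRNA and footprints; black lines are medians. The orange points of R98S clone 35 are the highest group in both panels, with medians of 0.65 and 0.49, and Herpud1 is the topmost point.

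Of 79 other ER genes listed by function, 71 were tested in footprints. By limma at an adjusted p under 0.1, 0 passed higher, against 3.13% of all genes, and 2 lower, against 4.62%. At an unadjusted p under 0.05 there were 13, against 1943 of 9580 genes. In TE 0 of 70 passed, with 5 at an unadjusted p under 0.05, beside 710 of 9043 genes. The median log2 fold change in footprints was -0.01. The genes that passed in footprints were a factor that inserts tail-anchored proteins and a catalytic subunit of the oligosaccharyltransferase.

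Asna1, which carries tail-anchored proteins to the ER, had footprint counts of 568, 559.9 and 687 in R98S clones 11, 13 and 35 and 956, 811 and 972 in WT clones 28, 29 and 36, a log2 fold change of -0.59 (SE 0.18, adjusted p = 0.0888) by limma. Stt3a, which transfers glycans next to the translocon, had footprint counts of 3146, 2612 and 3394 in the R98S clones and 5766, 4731 and 4298 in the WT clones, a log2 fold change of -0.69 (SE 0.19, adjusted p = 0.0727) by limma. The genotypes did not overlap for either gene. Both calls were lost without R98S clone 11, R98S clone 13, WT clone 28 or WT clone 36. With any 1 clone left out the changes ranged from -0.69 to -0.54 for Asna1 and from -0.78 to -0.57 for Stt3a, and with chromosome medians removed Asna1 was at -0.40 (adjusted p = 0.232, limma).

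The PERK branch and the site proteases that cut Atf6 were the function whose median lay farthest from 0 in mRNA, at -0.48 over 8 tested genes. Of these, 0 passed the threshold and 7 were below 0. Over all genes 787 of 11344 passed in mRNA and 5510 were below 0. Atf4, the transcription factor that PERK signalling induces at the level of translation, had mRNA counts of 6494, 6216 and 17712 in the R98S clones and 18486, 10161 and 14104 in the WT clones and footprint counts of 332, 538 and 2458 in the R98S clones and 1681, 2938 and 2726 in the WT clones. R98S clones 11 and 13 were far below the other 4 clones in footprints and R98S clone 35 was among the WT clones, so the log2 fold change of -1.64 (SE 0.57, adjusted p = 0.138) by limma did not pass. Its targets Ddit3, at 295, 209.7 and 758 in the R98S clones and 473, 562 and 451 in the WT clones in mRNA, and Trib3, at 432, 638 and 1753 in the R98S clones and 1386, 1132 and 896 in the WT clones, had R98S clone 35 highest of the 6 clones. Why R98S clone 35 differs was not tested.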

How the data were processed

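For each assay the authors deposited 1 table of signal values, gene counts divided by DESeq2 size factors. Per the study's methods, reads were trimmed, freed of rRNA and tRNA with Bowtie2, aligned to mm10 with TopHat2 2.0.11 (submitters' processing notes) and kept as primary alignments, and footprints were counted over coding sequences without 15 codons at the start and 5 at the end, with technical replicates merged. The strand setting of the counting is not given in the sources used here. In each library 100% of values above 0 were whole multiples of 1 read (tolerance 0.001), so whole reads were recovered; on them edgeR called 805 genes in mRNA and 808 in footprints.

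The main test was limma 3.58.1 (R 4.3.3) with a variance trend on log2(value + 1), over genes with a mean of at least 10 (mRNA, footprints) or at least 10 in each library (TE), with Benjamini-Hochberg adjustment and the study's threshold of 0.1. edgeR 4.0.16 and DESeq2 1.42.0 on whole reads, other pseudocounts and filters, TMM scaling, library weights, removed chromosome medians and left-out clones were alternatives. The study's Babel test of TE was not run. TE pairs the libraries of a clone by the clone number in their labels; deviations from the genotype mean correlated at 0.218 to 0.681 between them.

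Members and lists were chosen with earlier results of these data known. Values in every library are given for members past the threshold, for the 3 largest positive and negative changes in mRNA, footprints and TE, and for Hspa5, Hsp90b1, Xbp1, Atf6, Ern1 and Sec61a1; other ER genes are named where they passed in mRNA or footprints, except that 1 result is not reported here. Sdf2l1, P4hb, Derl2, Atf4, Ddit3 and Trib3 are named beyond this rule, with their values known. Gene positions are from GENCODE M21. The labels give no batch. The limma p-values set a genotype difference against the spread between clones of a genotype, moderated by the variance trend over all genes.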

Additional observations from a re-analysis of the deposited data

How the results depend on the processing

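The calls of Xbp1 and Ssr3 in mRNA, and of Xbp1, Ssr3 and Sec61b in footprints, were made by limma, edgeR and DESeq2, with either other pseudocount, either other filter and TMM scaling. With library weights 5 members passed in mRNA and 3 in TE (Ern1 and Atf6b higher, Sec62 lower), and with chromosome medians removed 1 passed in mRNA and 1 in footprints, Xbp1 in both. With 1 clone left out the members called ranged from 0 to 3 in mRNA and from 0 to 3 in footprints, and the count was 0 in both without R98S clone 11 or 13. Their median log2 fold change ranged from -0.10 to 0.01 in mRNA and from -0.10 to 0.13 in footprints, below 0 without WT clone 29. It ranged from -0.004 to 0.11 in TE.

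Over all genes, 787 passed in mRNA, 743 in footprints and 2 in TE. Other counts were 517 (mean of at least 100), 1283 (DESeq2) and 2959 (library weights) in mRNA, 1799 in footprints with library weights, and, in TE, 4 with no filter, 0 at 100 or more in each library, 6 by DESeq2 and 796 with library weights. Left-out clones gave 315 to 1113, 229 to 1148 and 0 to 3. Without a replicate block, that is without pairing the libraries of a clone, TE gave 3 calls and 0 members. No paired analysis of the genotypes was possible because their clones share no numbers.

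Among members not called, Atf6 turned to -0.19 with library weights and -0.11 with chromosome medians removed in mRNA, and to -0.013 in footprints with the latter. Sec61a1 footprints were at -0.001 by edgeR and -0.006 by DESeq2. With library weights the TE of Hsp90b1 was 0.12 and that of Ssr3 -0.006. With 1 clone left out, changes that crossed 0 ranged from -0.12 to 0.36 (Atf6) and -0.23 to 0.15 (Ern1) in mRNA, from -0.18 to 0.42 (Ern1), -0.15 to 0.34 (Atf6), -0.12 to 0.16 (Sec61a1) and -0.999 to 0.042 (Herpud1) in footprints, and from -0.13 to 0.13 (Hsp90b1), -0.16 to 0.56 (Ern1), -0.20 to 0.46 (Atf6), -0.02 to 0.52 (Sec61b) and -0.016 to 0.10 (Ssr3) in TE. The causes were not tested. Depth limits the low members most, such as Dnajb9 with 67 footprint reads in WT clone 36.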
